A study of Homo sapiens with 12 samples.

Results

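The actin contractile apparatus and its link to cell adhesion were followed through 10 genes in LARP4A- and LARP4B-depleted tumour cell lines: ACTA2, ACTA2-AS1, TAGLN, CNN1, MYL9, TPM1, TPM2, TLN1, VCL and TLNRD1. They are 10 of 26464 genes kept from the deposited tables, and each is represented by its most counted transcript model, summed over 12 libraries. The set was named with earlier results of these data known. TLNRD1 was selected on its level after siLARP4A in both lines, and ACTA2 and ACTA2-AS1 on theirs after siLARP4A in MG63, so these values are given as a description with no test. PC3 is an established line from a prostate adenocarcinoma and MG63 one from an osteosarcoma. Both are labelled as wild type, and they were grown in RPMI and alpha-MEM respectively. Each line was transfected by lipid with siRNA at 10 nM, with RNA selected for poly(A) collected 72 h later. The siRNA was a control (siControl), against LARP4A (siLARP4A) or against LARP4B (siLARP4B). Each of the 6 groups had 2 libraries, which the series' design text calls biological replicates.

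Smooth muscle and contractile fibroblasts generate force when myosin II pulls on actin filaments. ACTA2 (smooth muscle alpha-actin) forms the filaments, MYL9 is a regulatory light chain of myosin II, tropomyosins (TPM1, TPM2) run along the filament, and calponin (CNN1) and transgelin (TAGLN) bind it. Talin (TLN1) couples integrins to actin and recruits vinculin (VCL) when it is stretched, and TLNRD1 is an actin-bundling protein built from a domain related to the talin rod. Many of these genes are targets of serum response factor (SRF) and its actin-sensing coactivators, the MRTFs, which act through a DNA element called the CArG box. LARP4A and LARP4B are RNA-binding proteins that associate with poly(A)-binding protein and messenger RNA.

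Library totals were 16950119 to 24864977 fragments. LARP4, the gene of LARP4A, fell from 19.2 to 2.41 FPKM (fragments scaled to model length and library total) after siLARP4A in PC3 and from 8.34 to 2.15 in MG63. LARP4B fell from 7.10 to 1.31 FPKM after siLARP4B in PC3 and from 6.71 to 2.05 in MG63, so both targets went with the labels. After siLARP4B, LARP4 rose in MG63 from 8.34 to 11.1 FPKM (log2 0.43, edgeR adjusted p 8.4e-06) and was at -0.03 in PC3. PC3 carried epithelial keratins (KRT8 at 203 to 301 FPKM) but at most 1 fragment per library of the prostate luminal marker KLK3. MG63 carried COL1A1 at 719 to 1337 FPKM, with at most 4 fragments per library of the osteoblast regulator SP7. Of the smooth muscle markers, MYOCD reached at most 8 fragments in any library, LMOD1 31 and DES 42, whereas SMTN was at 21.1 FPKM or above throughout. MYH11 was not analysed here.

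In siControl cells 8 of the 10 genes passed the threshold between the 2 lines (6 higher and 2 lower in MG63). That share was near the 82.0% of all 15682 genes tested that did, so the count sets these genes apart in no way. Fold changes here are on the TMM scale of the fit and need not equal ratios of FPKM. The threshold throughout is an edgeR quasi-likelihood adjusted p under 0.05, adjusted over all genes tested. TPM2 differed most, at 1179.9 and 1169 FPKM in the MG63 libraries against 5.16 and 5.98 in PC3, a 239-fold difference (log2 7.90, SE 0.0833, edgeR adjusted p 2.3e-26). ACTA2-AS1 was 25.1-fold, MYL9 15.9-fold, ACTA2 15.2-fold, TLN1 7.62-fold and TPM1 6.0-fold higher in MG63. VCL went the other way, with 161 and 160.3 FPKM in PC3 and 70.6 and 73.7 in MG63 (1.96-fold higher in PC3, edgeR adjusted p 1.4e-15). TLNRD1 was 1.29-fold higher in PC3 (edgeR adjusted p 0.002), a call that was lost without PC3 siControl replicate 1 (adjusted p 0.053). TAGLN, at 2.65 to 2.91 FPKM in these 4 libraries, and CNN1, at 0.0314 to 0.148 FPKM, did not pass. The span of the TAGLN model also holds exon bases of PCSK7, a gene on the other strand, described below.

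**Figure D1:**
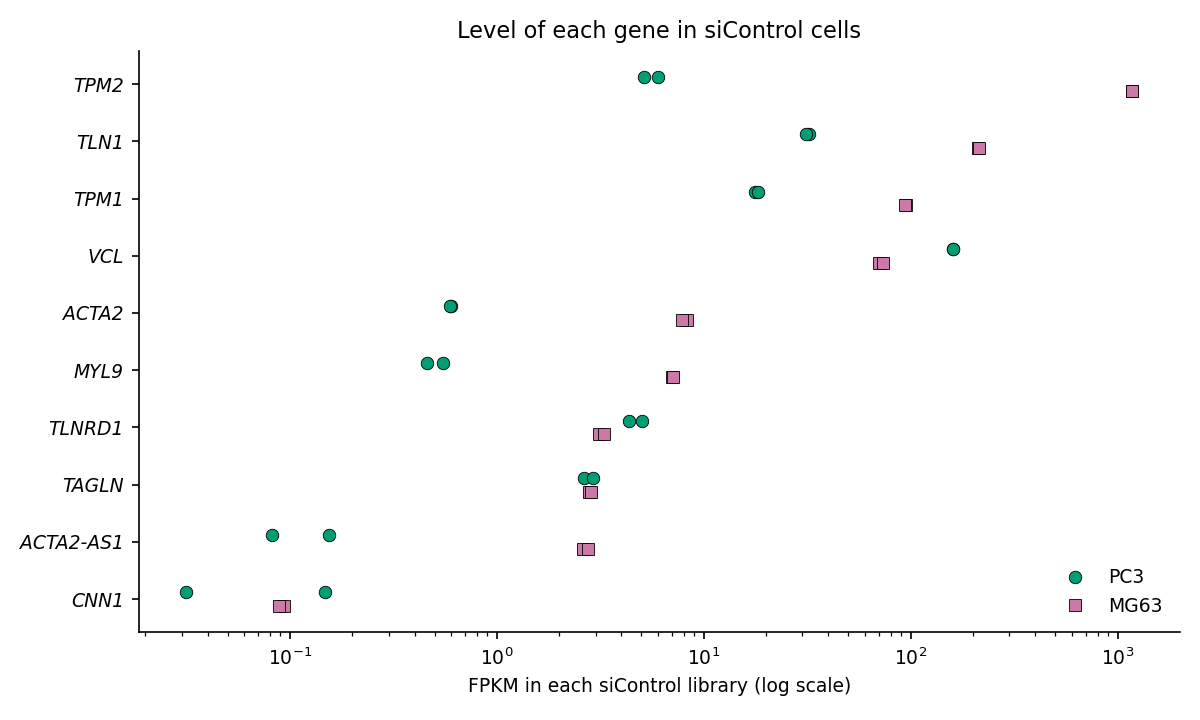
Level of each gene in FPKM on a log axis, with each siControl library as a point (circles PC3, squares MG63). TPM2 spans the widest distance between the lines, VCL and TLNRD1 lie higher in PC3, and the points of TAGLN and CNN1 from the 2 lines overlap.

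Ranked by FPKM, the order in PC3 siControl cells was VCL, TLN1, TPM1, TPM2, TLNRD1, TAGLN, ACTA2, MYL9, ACTA2-AS1 and CNN1. In MG63 it was TPM2, TLN1, TPM1, VCL, ACTA2, MYL9, TLNRD1, TAGLN, ACTA2-AS1 and CNN1. The 2 libraries of neighbours in these orders did not overlap except for ACTA2-AS1 and CNN1 in PC3. TLN1, VCL and TPM1 were thus at 17.6 FPKM or above in both lines, TPM2 was high in MG63 alone, and CNN1 was at the edge of detection. Other calponin genes were not: mean siControl levels in PC3 and MG63 were 36.8 and 64.5 FPKM for CNN2, and 17.7 and 136 for CNN3.

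After siLARP4A in PC3, 5 of the 9 genes tested passed the threshold (MYL9, TLN1 and TPM2 higher, TPM1 and VCL lower), beside 36.4% of all genes. In MG63, 3 of 7 passed (MYL9, TAGLN and TLN1, all higher), beside 26.8%. After siLARP4B in PC3, 8 of 10 passed: ACTA2, ACTA2-AS1, CNN1, TAGLN, TPM1 and TPM2 were higher, TLN1 and TLNRD1 lower, beside 45.7% of all genes. CNN1 entered the test only through the group where it is high, so its call there is a description, and without it 7 of 9 passed. In MG63, 6 of 10 passed after siLARP4B (ACTA2, ACTA2-AS1, TPM1 and VCL higher, TLN1 and TLNRD1 lower), beside 34.9%. The PC3 siLARP4B count went to 4 without siControl replicate 1, and the PC3 siLARP4A count to 3 without that library or either siLARP4A library. Over the genes tested, leaving out the values that chose a gene, the median log2 fold change after siLARP4A was 0.18 in PC3 (9 genes) and 0.27 in MG63 (7 genes), against 0.03 and -0.000556 over all genes. After siLARP4B it was 0.43 in PC3 and 0.21 in MG63 (10 genes each, CNN1 included), against 0.04 and -0.00261. Both siRNA groups of a line were compared with the same 2 siControl libraries. In both lines these entered the values that chose TLNRD1, and in MG63 those that chose ACTA2 and ACTA2-AS1. The siLARP4B calls of these genes there are not independent of that choice. Marker genes moved beside these counts. The summed level of 8 mesenchymal and osteoblast markers in PC3 was 13.3 and 15.5 FPKM with siControl and 20 and 20.3 with siLARP4B, where 3 of the 7 tested rose (BGLAP, COL1A1 and SPARC) and COL1A2 fell. Of 4 smooth muscle markers tested in MG63 after siLARP4A, DES and LMOD1 rose and SMTN fell, and the summed level of that list went from 30.1 and 31.5 FPKM with siControl to 22.9 and 23.8. Most of that sum was SMTN, at 31.0 and 29.6 FPKM with siControl and 22.7 and 21.1 with siLARP4A. The part of these markers in the counts was not tested. In bulk RNA, fewer cells with a transcript and less of it per cell cannot be told apart.

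**Figure D2:**
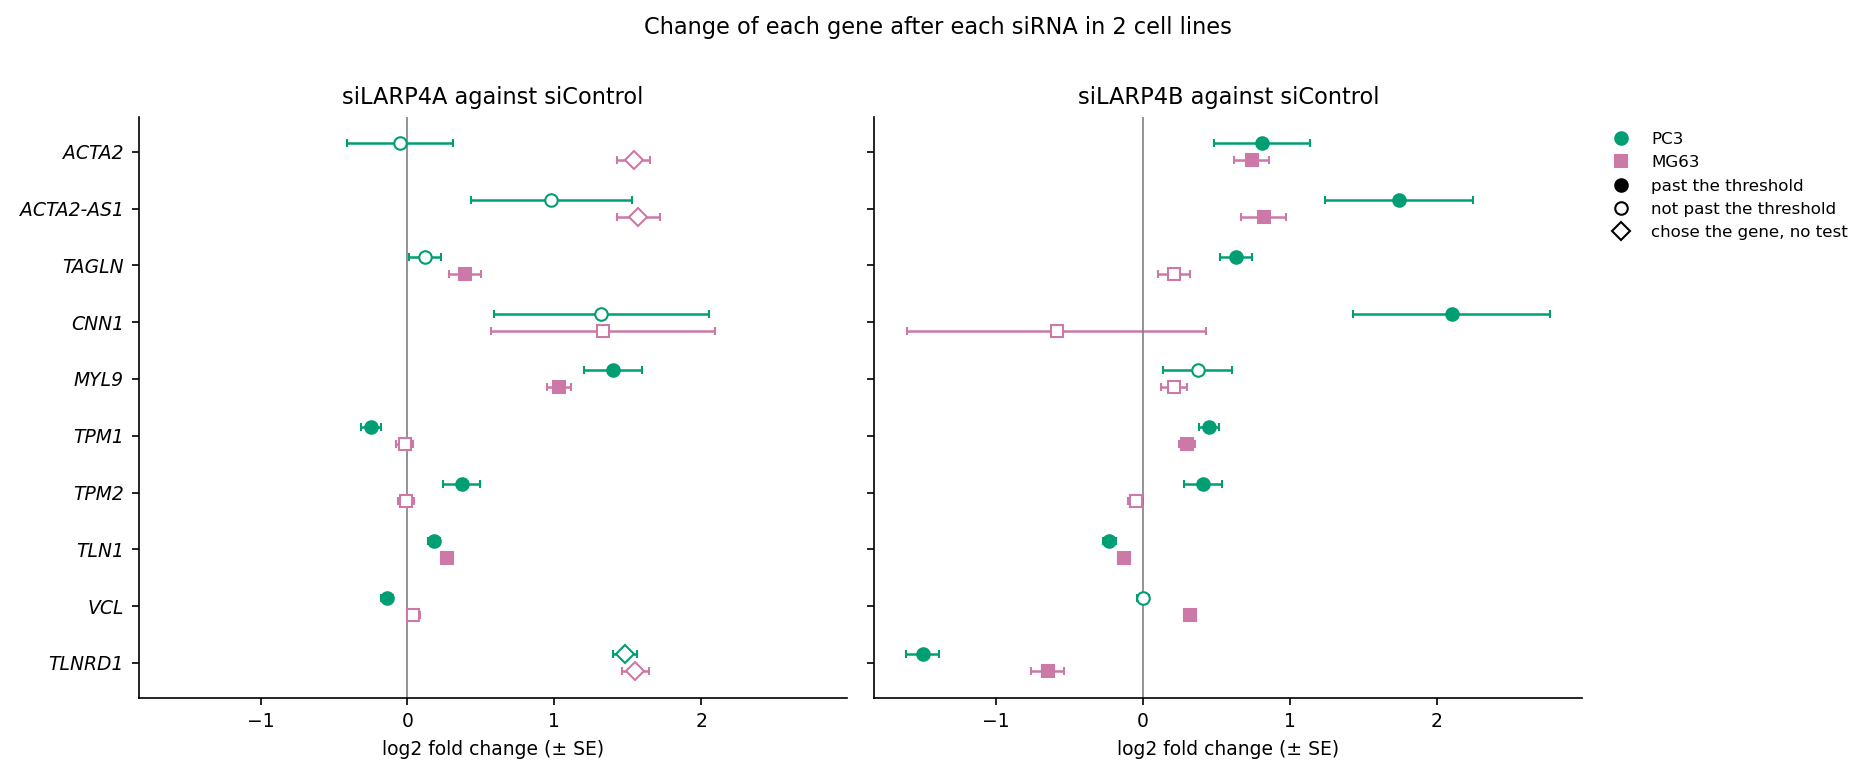
Log2 fold change of each gene against siControl with its standard error, for siLARP4A (left) and siLARP4B (right), in PC3 (green circles) and MG63 (pink squares). Filled points passed the threshold, open points did not, and diamonds are the values that chose the gene. TLNRD1 lies right of 0 after siLARP4A and left of 0 after siLARP4B in both lines.

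TLNRD1, the talin-rod-related actin bundler, is a plus-strand gene of 1 exon (4866 bases) on GRCh38, chromosome 15 from 81000923 to 81005788. In PC3 its level was 5.02 and 4.36 FPKM with siControl, 12.2 and 13.7 with siLARP4A, and 1.69 and 1.62 with siLARP4B. The MG63 libraries, in the same order, gave 3.12 and 3.28, 9.06 and 9.76, and 1.89 and 2.14 FPKM. The siLARP4A libraries were the highest and the siLARP4B libraries the lowest in each line, with no overlap between groups.

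The siLARP4A level of TLNRD1, which chose the gene, was 2.79 times siControl in PC3 (log2 1.48, SE 0.0835) and 2.94 times in MG63 (log2 1.55, SE 0.0916). The response to siLARP4B did not choose the gene, but it is measured against the same siControl libraries as the values that did. In PC3, TLNRD1 fell to 0.354 of siControl (95% interval of the log2 change -1.73 to -1.27, edgeR adjusted p 3.7e-10). The MG63 level fell to 0.635 of siControl (95% interval -0.89 to -0.42, edgeR adjusted p 9.7e-05). The difference between the lines passed its own test (log2 difference 0.84 with SE 0.161 and an edgeR adjusted p of 0.00047). LARP4B itself also fell further in PC3 (by 2.44) than in MG63 (by 1.7), a difference of 0.75 (edgeR adjusted p 4.1e-05). The response of LARP4 to siLARP4B differed between the lines too, by 0.46 (edgeR adjusted p 0.00024). The part of these in the TLNRD1 difference was not tested. No alternative fit, and no left-out library, ended any of these 3 TLNRD1 calls.

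Genes near TLNRD1 did not repeat its pattern. MESD, a chaperone gene 11103 bases away, rose after siLARP4A by 0.51 in PC3 (edgeR adjusted p 1.7e-06) and by 0.45 in MG63 (edgeR adjusted p 1.1e-05). After siLARP4B it rose in MG63 by 0.34 (edgeR adjusted p 0.00022) and was at 0.11 in PC3, so it fell in neither line. CEMIP, a hyaluronan-degradation gene 49151 bases away, fell after siLARP4A in PC3 by 0.43 (edgeR adjusted p 6.6e-05) and passed in no other comparison with siControl. MIR4514 had 0 fragments in every library.

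The upstream sequences of TLNRD1 and ACTA2 are shown because their siLARP4A levels chose both genes and only ACTA2 has letters resembling a CArG box there. They are RefSeq sequences on GRCh38.p14, the 250 bases before an annotated start, 5′ to 3′. TLNRD1 is at chr15:81000673-81000922 on the plus strand, and ACTA2, at its inner start, is at chr10:88952774-88953023 on the minus strand. Capitals mark stretches that match the CArG box with 1 of its 6 core letters off.
TLNRD1: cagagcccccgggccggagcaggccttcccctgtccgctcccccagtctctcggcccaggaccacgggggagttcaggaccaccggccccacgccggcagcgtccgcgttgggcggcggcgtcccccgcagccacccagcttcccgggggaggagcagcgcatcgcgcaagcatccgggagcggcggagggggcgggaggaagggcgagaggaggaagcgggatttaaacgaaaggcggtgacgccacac
ACTA2: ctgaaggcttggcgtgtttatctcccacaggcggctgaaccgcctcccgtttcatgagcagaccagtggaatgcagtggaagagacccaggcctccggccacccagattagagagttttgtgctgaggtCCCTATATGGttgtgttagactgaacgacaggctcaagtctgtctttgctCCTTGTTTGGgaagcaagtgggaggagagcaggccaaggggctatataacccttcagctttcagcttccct

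In the ACTA2 window the matches CCCTATATGG and CCTTGTTTGG begin 121 and 71 bases before the start. Both strands of the 300-base windows (250 before to 50 after a start) were searched. A full CArG box was found in 1.29% of the 35116 RefSeq promoter windows, and a box with up to 1 core letter off in 8.13%. Promoters were found for 7 of the 10 genes: ACTA2, TPM1, TPM2, TLN1, VCL, TLNRD1 and CNN1. Of their windows, only the ACTA2 one printed above held a match. It lies before an inner start of the gene, where a shorter model begins at 88952773. The ACTA2 model whose levels are given begins at 88991397, and the ACTA2 window at that end (upstream bases chr10:88991338-88991587) held no match. TAGLN, MYL9 and ACTA2-AS1 were not matched in the table. These are matches of letters, and no binding was measured.

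ACTA2 (chromosome 10, 88935074 to 88991397, minus strand), the smooth muscle actin gene, was at 8.27 and 7.83 FPKM in MG63 with siControl, 24.1 and 22.6 with siLARP4A, and 14.6 and 11.9 with siLARP4B. The groups did not overlap, and siLARP4B lay between the others. The siLARP4A level, which chose the gene, was 2.90 times siControl (log2 1.54, SE 0.114). After siLARP4B ACTA2 rose by 0.74 (1.67-fold, SE 0.12, edgeR adjusted p 4.8e-05). This response did not choose the gene, but it is measured against the same siControl libraries as the value that did. A low siControl level would raise both, so the test is not independent of the choice. In MG63 the summed level of 8 mesenchymal and osteoblast markers was 1942 and 1988 FPKM with siControl, 2606 and 2708 with siLARP4A, and 1932 and 2155 with siLARP4B. Within that list 5 of the 7 genes tested rose after siLARP4A and none fell, and after siLARP4B 1 rose and 2 fell, beside 26.8% and 34.9% of all genes called. The part of these markers in the ACTA2 values was not tested.

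In PC3 ACTA2 was low, at 0.599 and 0.595 FPKM with siControl, 0.615 and 0.508 with siLARP4A, and 1.39 and 0.669 with siLARP4B, which are 17 to 47 fragments per library. After siLARP4A it was at -0.05 on the log2 scale (95% interval -0.81 to 0.70, edgeR adjusted p 0.94). After siLARP4B it was at 0.81 (SE 0.328), with an edgeR adjusted p that rounds to 0.05 and lies just under the threshold. That call was lost in 13 of 22 alternatives, where the adjusted p ranged from 0.0046 to 0.8. Without siLARP4B replicate 1 the change was 0.16 (adjusted p 0.8), and the call also ended without siControl replicate 1 (adjusted p 0.13) or 2 (adjusted p 0.15) and without any 1 of the MG63 siControl or siLARP4A libraries (adjusted p 0.076 to 0.079).

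ACTA2-AS1 (chromosome 10, 88932684 to 88939974, plus strand) is an antisense transcript through the end of ACTA2. In MG63 it was at 2.62 and 2.77 FPKM with siControl, 8.04 and 7.94 with siLARP4A, and 4.97 and 4.44 with siLARP4B, in the same order as ACTA2. Its siLARP4A level, which chose it, was 2.96 times siControl (log2 1.57, SE 0.146). After siLARP4B in MG63 ACTA2-AS1 rose by 0.82 (SE 0.155, edgeR adjusted p 0.00026), against the same siControl libraries and with the same limit as ACTA2. With limma on log2(FPKM + 0.1) that call was lost (adjusted p 0.052). In PC3 it had 3 and 6 fragments with siControl, 9 and 12 with siLARP4A, and 21 and 9 with siLARP4B. The PC3 rise after siLARP4B (log2 1.74, SE 0.503, edgeR adjusted p 0.0071) was lost without siControl replicate 1 (adjusted p 0.073) and without siLARP4B replicate 1 (adjusted p 0.20).

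The 2 genes share 516 exon bases in GENCODE 29, 25.3% of the exon bases of ACTA2-AS1. Whether fragments were counted by strand is not given in the sources used here, so sense and antisense reads in the shared bases cannot be told apart. In MG63 the ratio of ACTA2-AS1 to ACTA2 fragments was 0.367 to 0.431 over 6 libraries, and in PC3, with few fragments, 0.158 to 0.706. The 2 genes are counted separately in the counts above, though they share these bases. The seventh exon of ACTA2 is printed because all of its 192 bases, which are coding, lie inside ACTA2-AS1 exons. It is at chr10:88939507-88939698 on the minus strand, from GENCODE 29 transcripts, and reads 5′ to 3′, with no letter set apart, since the overlap covers it whole.
ACTA2 exon 7: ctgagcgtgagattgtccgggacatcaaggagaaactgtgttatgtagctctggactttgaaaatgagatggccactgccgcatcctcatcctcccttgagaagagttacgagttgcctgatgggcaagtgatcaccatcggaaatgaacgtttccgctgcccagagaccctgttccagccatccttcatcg

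**Figure D3:**
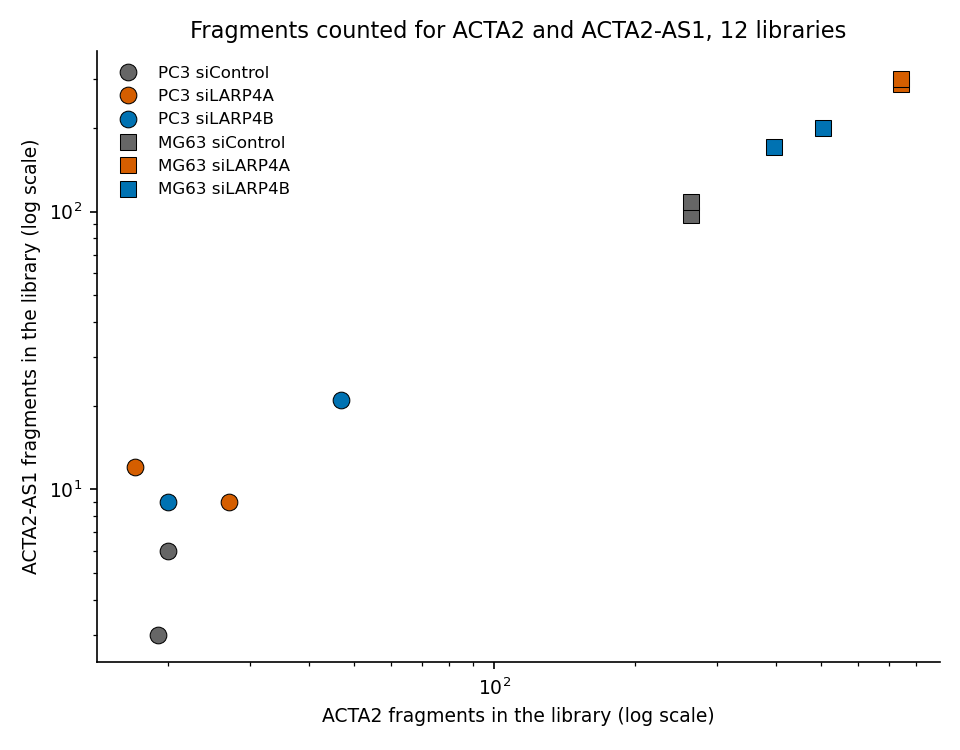
Fragments counted for ACTA2 (x axis) and ACTA2-AS1 (y axis), both on log scales, in each of the 12 libraries. The MG63 squares run from 264 and 97 fragments (siControl) to 744 and 287 (siLARP4A), with siLARP4B between, and the PC3 circles lie at 47 or fewer ACTA2 fragments.

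FAS, the death receptor gene that shares 380 exon bases with ACTA2 at its other end, rose after siLARP4B in PC3 by 0.71 (edgeR adjusted p 0.00016) and in MG63 by 0.63 (edgeR adjusted p 2.2e-05). These values lie near those of ACTA2 (0.81 and 0.74), and fragments in the shared bases cannot be told apart. A shorter ACTA2 model, which starts at 88952773, does not reach FAS. That model had 233 and 230 fragments in MG63 with siControl and 467 and 370 with siLARP4B. Over the 3 ACTA2 models the log2 ratios after siLARP4B were 0.72 to 0.80 in MG63 and 0.77 to 1.08 in PC3. After siLARP4A, FAS was at -0.01 in PC3 and 0.16 in MG63, neither past the threshold. STAMBPL1, a deubiquitinase gene 11586 bases from ACTA2, fell after siLARP4A by 1.73 in PC3 (edgeR adjusted p 1.9e-08) and by 0.83 in MG63 (edgeR adjusted p 1.8e-06). It did not pass after siLARP4B. FAS-AS1 had 1 to 8 fragments per library.

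MYL9, the myosin light chain gene (chromosome 20, 36541519 to 36551446, plus strand), rose after siLARP4A in both lines. In PC3 it was at 0.460 and 0.547 FPKM with siControl, 1.27 and 1.38 with siLARP4A, and 0.712 and 0.593 with siLARP4B. These are low counts: 23 and 29, 88 and 73, and 38 and 28 fragments in the same order. MG63 had 7.02 and 7.13 FPKM with siControl, 14.5 and 14.4 with siLARP4A, and 8.43 and 7.71 with siLARP4B. The siLARP4A libraries stood above all others of their line, and those with siLARP4B lay only slightly above siControl.

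The rise of MYL9 after siLARP4A was 2.64-fold in PC3 (log2 1.40, SE 0.195, edgeR adjusted p 6.7e-06) and 2.04-fold in MG63 (log2 1.03, SE 0.0827, edgeR adjusted p 5.2e-09). It was also higher than with siLARP4B, by 1.03 in PC3 (edgeR adjusted p 6.2e-05) and by 0.82 in MG63 (edgeR adjusted p 3.4e-08). After siLARP4B itself MYL9 did not pass (0.37 in PC3, edgeR adjusted p 0.25, and 0.21 in MG63, edgeR adjusted p 0.071). The siLARP4A rise did not differ detectably between lines (-0.37, 95% interval -0.82 to 0.08). DLGAP4-AS1, which spans MYL9 in the annotation, had 0 to 2 fragments per library.

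TAGLN, the transgelin gene (chromosome 11, 117199294 to 117207465, plus strand), was at 2.65 and 2.91 FPKM in PC3 with siControl, 2.86 and 3.16 with siLARP4A, and 4.23 and 4.45 with siLARP4B. The siControl libraries of MG63 had 2.79 and 2.86 FPKM, those with siLARP4A 3.30 and 4.07, and those with siLARP4B 3.27 and 3.21. In PC3 only the siLARP4B libraries stood apart, and in MG63 both siRNAs lay above siControl.

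TAGLN rose after siLARP4B in PC3 by 0.63 (1.55-fold, SE 0.108, edgeR adjusted p 4.8e-05), and it was higher there than with siLARP4A (0.51 on the log2 scale, 1.42-fold, edgeR adjusted p 0.00025). It rose after siLARP4A in MG63 by 0.39 (SE 0.11, edgeR adjusted p 0.011), a call lost without MG63 siLARP4A replicate 2 (0.23, adjusted p 0.24) and without siControl replicate 1 (adjusted p 0.071) or 2 (adjusted p 0.055). The deposited TAGLN model has 4260 bases and ends 2683 bases past the GENCODE 29 end of the gene. Of those added bases, 1787 are exon of PCSK7, a proprotein convertase gene on the other strand. The whole span of the model holds 2233 bases of PCSK7 exon. PCSK7 rose after siLARP4B in PC3 by 0.38 (edgeR adjusted p 0.00021) and was between -0.02 and 0.08 in the other comparisons with siControl. Fragments of the 2 genes in those bases cannot be told apart. LOC100652768, which overlaps 2621 bases of TAGLN on the other strand, rose in the same comparison by 1.15 (SE 0.245, edgeR adjusted p 0.00056).

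CNN1, a calponin gene (chromosome 19, 11538851 to 11550323, plus strand), had 0 to 15 fragments in any library. In PC3 it was at 0.0314 and 0.148 FPKM with siControl, 0.227 and 0.238 with siLARP4A, and 0.324 and 0.499 with siLARP4B. MG63 values were 0.0935 and 0.0886, then 0.161 and 0.304, then 0.115 and 0 FPKM. It passed edgeR's filter on low counts through its PC3 siLARP4B libraries. Its level there was 2.10 above siControl on the log2 scale (SE 0.671), and 1.43 to 3.52 with a library left out. Since that group let the gene into the test, this value is a description and its call is no evidence of a rise. The call was also lost without siControl replicate 1 or siLARP4B replicate 2. No other comparison of CNN1 with siControl passed.

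**Figure D4:**
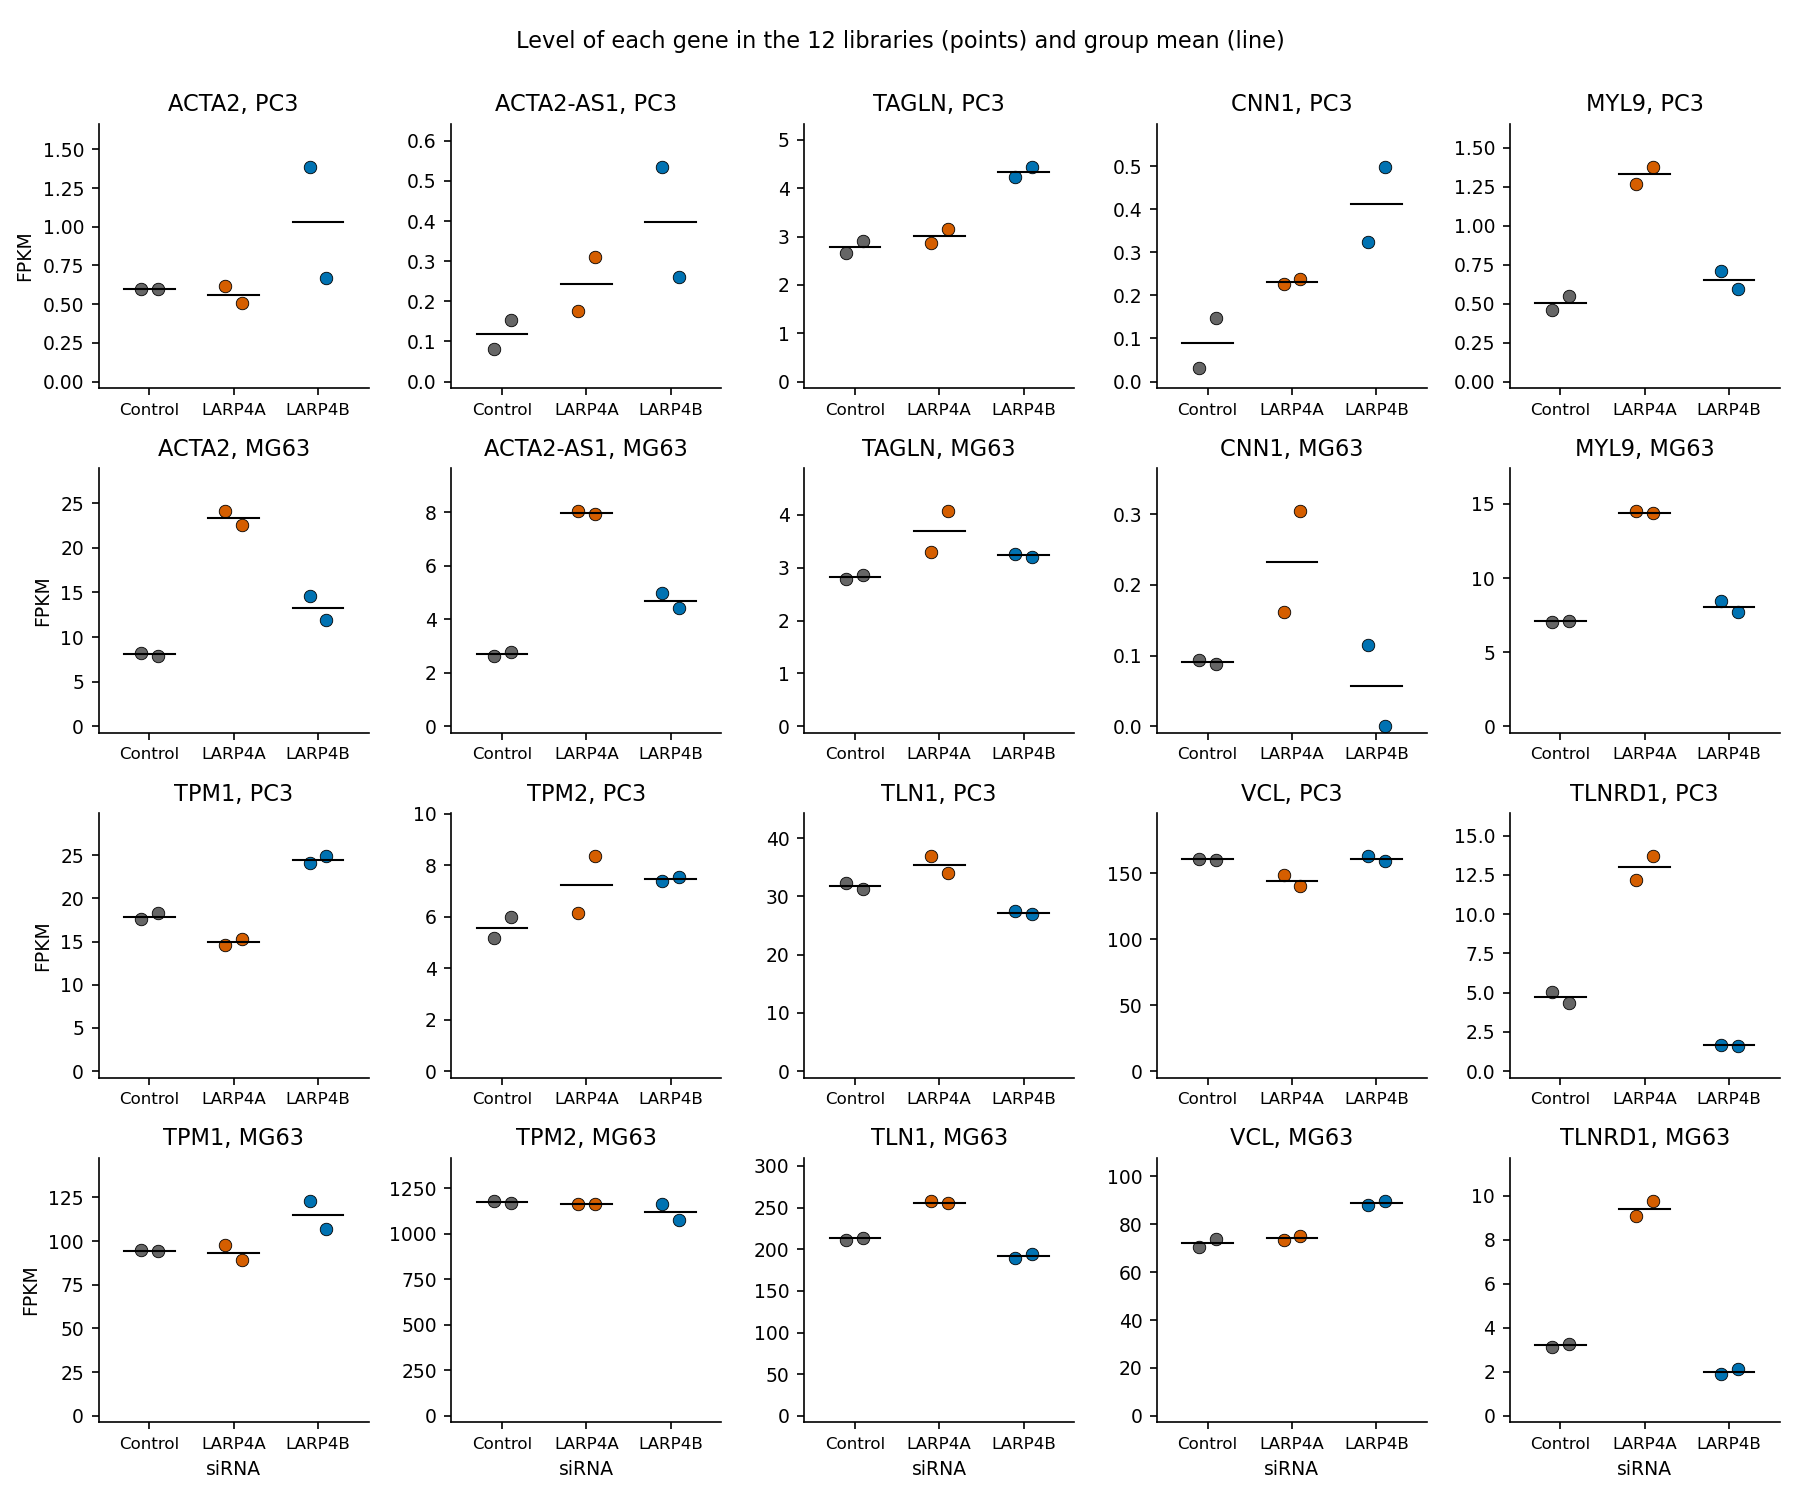
FPKM of each gene in every library (points) with the group mean (line), in separate panels for PC3 and MG63 because the levels differ between lines. Each y axis starts just below 0. TLNRD1 is highest with siLARP4A and lowest with siLARP4B in both lines, and MYL9 is highest with siLARP4A in both.

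The tropomyosin genes, whose products stabilise actin filaments, split by siRNA and by line. TPM1 (chromosome 15, 63048489 to 63071914, plus strand) was at 17.6 and 18.3 FPKM in PC3 with siControl, 14.6 and 15.3 with siLARP4A, and 24.1 and 24.9 with siLARP4B. MG63 levels were 95.1 and 94.2, then 97.7 and 89.1, then 123 and 107 FPKM. The siLARP4B libraries were the highest of each line.

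TPM1 rose after siLARP4B by 0.45 in PC3 (1.36-fold, SE 0.0674, edgeR adjusted p 1.1e-05), and the MG63 rise was 0.30 (1.23-fold, SE 0.0561, edgeR adjusted p 0.00024). After siLARP4A it fell by 0.25 in PC3 (SE 0.0695, edgeR adjusted p 0.0074). That call was lost without siControl replicate 2 (adjusted p 0.053) or siLARP4A replicate 1 (adjusted p 0.055). In MG63 it was at -0.02 (95% interval -0.14 to 0.10). The tables hold 19 TPM1 models, which share exons. Their log2 ratios after siLARP4B were 0.39 to 0.50 in PC3 and 0.25 to 0.29 in MG63, so the rise was seen in each model. The antisense transcript TPM1-AS, which overlaps TPM1 on the other strand, rose after siLARP4B by 0.48 in PC3 (edgeR adjusted p 0.0035) and by 0.39 in MG63 (edgeR adjusted p 0.0016), and the 2 share 327 exon bases.

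TPM2 (chromosome 9, 35682008 to 35689925, minus strand) was at 5.16 and 5.98 FPKM in PC3 with siControl, 6.13 and 8.35 with siLARP4A, and 7.40 and 7.52 with siLARP4B. In MG63, where it was the most abundant gene of the 10, it stayed between 1074 and 1179.9 FPKM in all 6 libraries. It rose in PC3 after siLARP4A by 0.37 (SE 0.126, edgeR adjusted p 0.025) and after siLARP4B by 0.41 (SE 0.129, edgeR adjusted p 0.012). The siLARP4A call fell to 0.16 (adjusted p 0.46) without siLARP4A replicate 2. Without siControl replicate 1 it was 0.28 (adjusted p 0.19), and leaving out any of the MG63 siControl or siLARP4A libraries gave 0.33 (adjusted p 0.055 to 0.059). The siLARP4B call was lost without siControl replicate 1 (0.32, adjusted p 0.11) or siLARP4B replicate 2 (0.40, adjusted p 0.054). Both PC3 calls were also lost in a fit of PC3 alone (edgeR adjusted p 0.12 after siLARP4A and 0.088 after siLARP4B). The deduplicated table, which replaced PC3 siControl replicate 2 alone, also ended both (edgeR adjusted p 0.094 and 0.059). In MG63 neither siRNA moved TPM2 past the threshold, with 95% intervals of -0.12 to 0.09 and -0.16 to 0.06.

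Talin and vinculin messages were abundant and changed by small amounts. TLN1 (chromosome 9, 35696948 to 35732195, minus strand) was at 32.2 and 31.3 FPKM in PC3 with siControl, 36.9 and 34.0 with siLARP4A, and 27.5 and 26.9 with siLARP4B. For MG63 the values were 211 and 214, then 258 and 255, then 189.7 and 194 FPKM. The order siLARP4A, siControl, siLARP4B held in both lines, with no overlap between groups.

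TLN1 rose after siLARP4A by 0.18 in PC3 and 0.27 in MG63 (SE 0.0433 and 0.0414, with edgeR adjusted p values of 0.0027 and 3.9e-05). It fell after siLARP4B by 0.23 in PC3 and 0.13 in MG63 (SE 0.0439 and 0.0415, with edgeR adjusted p values of 0.00021 and 0.016). Between the siRNAs TLN1 was 1.32-fold higher with siLARP4A in each line (log2 0.40, edgeR adjusted p 6.9e-08 in both). The PC3 siLARP4A call was lost without siLARP4A replicate 1 (0.11, adjusted p 0.063). The MG63 siLARP4B call was lost without siControl replicate 1 (adjusted p 0.063) or 2 (adjusted p 0.092) or siLARP4B replicate 1 (adjusted p 0.072). With the deduplicated table, which replaced PC3 siControl replicate 2 alone, both were lost (edgeR adjusted p 0.13 and 0.18). No MG63 library was deduplicated, and the groups share the estimate of spread, so these losses cannot show an effect of duplicates.

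VCL (chromosome 10, 73998116 to 74121363, plus strand) was at 161 and 160.3 FPKM in PC3 with siControl, 149 and 140.1 with siLARP4A, and 163 and 159 with siLARP4B. In MG63 it was at 70.6 and 73.7, then 73.4 and 75.2, then 87.9 and 89.8 FPKM. The siLARP4A libraries were the lowest in PC3, and the siLARP4B libraries the highest in MG63.

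VCL fell after siLARP4A in PC3 by 0.14 (SE 0.0415, edgeR adjusted p 0.012), a call lost without siControl replicate 1 (adjusted p 0.082) or siLARP4A replicate 2 (-0.09, adjusted p 0.11). It rose after siLARP4B in MG63 by 0.32 (SE 0.0422, edgeR adjusted p 4.1e-06). After siLARP4B in PC3 it was at 0.00 (95% interval -0.09 to 0.09). AP3M1, which shares 1109 exon bases with VCL on the other strand, rose in MG63 after siLARP4B by 0.15 (edgeR adjusted p 0.035) and was at 0.02 in PC3.

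Set directly against each other in PC3, the siRNAs differed for 6 of the 9 genes tested, with MYL9 and TLN1 higher with siLARP4A and ACTA2, TAGLN, TPM1 and VCL higher with siLARP4B, beside 54.1% of all genes. In MG63, 4 of 7 differed, MYL9 and TLN1 higher with siLARP4A and TPM1 and VCL higher with siLARP4B, beside 43.8%. TPM1 was lower with siLARP4A than with siLARP4B by 1.62-fold in PC3 (edgeR adjusted p 1.3e-08) and by 1.25-fold in MG63 (edgeR adjusted p 7.3e-05). VCL was lower with siLARP4A by 1.21-fold in MG63 (edgeR adjusted p 1.5e-05) and by 1.10-fold in PC3 (edgeR adjusted p 0.0076). The PC3 value was lost without siLARP4A replicate 2 (adjusted p 0.10) or siLARP4B replicate 1 (adjusted p 0.075). ACTA2 in PC3 (log2 -0.86, edgeR adjusted p 0.027) was at -0.21 without siLARP4B replicate 1 (adjusted p 0.70) and was also lost without siLARP4A replicate 1 (adjusted p 0.051) or 2 (adjusted p 0.10). TLNRD1, for which this contrast was not tested, was 7.89 times as high with siLARP4A as with siLARP4B in PC3 and 4.62 times in MG63.

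The siLARP4B response differed between the lines for 4 of the 10 genes, beside 26.8% of all genes. TLNRD1 and VCL were higher in MG63 relative to PC3, and TAGLN and TPM2 lower. For VCL the difference was 0.32 (SE 0.0592, edgeR adjusted p 0.00036), for TPM2 -0.47 (SE 0.140, edgeR adjusted p 0.016) and for TAGLN -0.42 (SE 0.155, edgeR adjusted p 0.049). PCSK7, whose exons lie partly in the TAGLN span, was at 0.38 in PC3 and 0.08 in MG63 after siLARP4B, and its part was not tested. The count was 2 without any of 6 single libraries and stayed at 3 or 4 otherwise, and the TAGLN call was lost with 10 of the 12 libraries left out in turn. Those 6 libraries were siControl replicate 1 and both siLARP4B replicates of PC3, and both siControl replicates and siLARP4B replicate 2 of MG63. By edgeR, the siLARP4A response differed between lines for 0 of the 7 genes tested, beside 11.2% of all genes. At an unadjusted p under 0.05 there were 3 (TPM1, TPM2 and VCL), and DESeq2 and limma each called 1. VCL came closest (0.18, SE 0.0592, edgeR adjusted p 0.053). ACTA2, whose siLARP4A response chose it, was at 1.59 on this scale as a description.

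Genes of the same apparatus outside the set were counted from 4 lists. The shares of all genes called, against which these counts stand, were 36.4% after siLARP4A and 45.7% after siLARP4B in PC3, and 26.8% and 34.9% in MG63. Of the actin, myosin and contractile genes, 19 of 22 were tested. In PC3 9 rose and 1 fell after siLARP4A, and 3 rose and 5 fell after siLARP4B. In MG63 8 rose and 2 fell after siLARP4A, and 6 rose and 1 fell after siLARP4B. CNN3, a calponin, rose after siLARP4A in PC3 by 0.80 (SE 0.0673, edgeR adjusted p 5.2e-09), and CALD1 (caldesmon) was 0.71 higher in MG63 (SE 0.0561, edgeR adjusted p 3.9e-09). CALD1 also rose after siLARP4B in MG63, by 0.58 (edgeR adjusted p 5.7e-08). ACTB (beta-actin) fell after siLARP4B by 0.39 in PC3 (edgeR adjusted p 1.6e-09) and by 0.25 in MG63 (edgeR adjusted p 3.1e-06). The share of the list called was 52.6% and 42.1% in PC3 and 52.6% and 36.8% in MG63, for siLARP4A and siLARP4B, so both siLARP4B shares were near those of all genes. The list's median log2 fold changes were 0.16 and 0.05 in PC3 and 0.08 and 0.10 in MG63, for siLARP4A and siLARP4B in that order. The medians over all genes are those given above.

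For the integrin, talin and vinculin adhesion genes, 27 of 28 were tested. After siLARP4A 10 rose and 5 fell in PC3 (median 0.10) and 16 rose and 1 fell in MG63 (median 0.19). After siLARP4B 6 rose and 13 fell in PC3 (median -0.13) and 5 rose and 11 fell in MG63 (median -0.07). The share called was 55.6% and 63.0% after siLARP4A and 70.4% and 59.3% after siLARP4B, in PC3 and MG63. Paxillin (PXN), a scaffold of focal adhesions, fell after siLARP4B by 1.00 in PC3 and 0.73 in MG63 (SE 0.0434 and 0.0486, with edgeR adjusted p values of 7.1e-14 and 2.3e-10), and it rose after siLARP4A in MG63 by 0.50 (edgeR adjusted p 4.3e-08). TNS3 (tensin 3) rose after siLARP4A in MG63 by 1.54 (SE 0.0702, edgeR adjusted p 1.2e-12). It also passed as higher after siLARP4B in both lines (0.43 in PC3, edgeR adjusted p 1.2e-06). ITGA5, the fibronectin receptor subunit, rose after siLARP4A in PC3 by 0.64 (edgeR adjusted p 2.2e-10). It passed as higher in every comparison with siControl, with a rise of 0.44 after siLARP4B in MG63 (edgeR adjusted p 3.5e-08).

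Of the other SRF and MRTF target genes, 12 of 13 were tested. THBS1 (thrombospondin 1) in MG63 rose after siLARP4A by 1.05 (SE 0.0932, edgeR adjusted p 2.1e-08) and fell after siLARP4B by 0.89 (SE 0.105, edgeR adjusted p 9.2e-07). In PC3 THBS1 passed as lower after either siRNA. CCN2 passed as lower in every comparison with siControl, with falls after siLARP4A of 0.24 in PC3 (edgeR adjusted p 0.00064) and 0.13 in MG63 (edgeR adjusted p 0.032). In that list 4 rose and 3 fell after siLARP4A and 2 rose and 4 fell after siLARP4B in PC3, and 6 rose and 2 fell, then 2 rose and 5 fell, in MG63. The share called was 58.3% and 50% in PC3 and 66.7% and 58.3% in MG63, and the PC3 siLARP4B share was near that of all genes. The medians were 0.08 and 0.03 in PC3 and 0.26 and -0.10 in MG63.

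All 8 genes listed as TLNRD1 partners or filopodia genes were tested. CCM2, the scaffold that TLNRD1 is known to bind, rose after siLARP4A by 0.35 in PC3 and 0.44 in MG63 (SE 0.0685 and 0.0754, with edgeR adjusted p values of 0.00031 and 0.00014). It fell after siLARP4B in PC3 by 0.24 (SE 0.0723, edgeR adjusted p 0.01). FSCN1 (fascin), another actin bundler, rose after siLARP4A by 0.42 in PC3 and by 0.15 in MG63 (edgeR adjusted p 5.9e-08 and 0.0084), and it also passed as higher after siLARP4B in MG63. MYO10 (myosin 10) went the other way in PC3, falling by 0.45 after siLARP4A (edgeR adjusted p 9e-06) and by 0.39 after siLARP4B (edgeR adjusted p 3.9e-05). In MG63 MYO10 rose after siLARP4B by 0.18 (edgeR adjusted p 0.017). In PC3 4 of the list rose and 1 fell after siLARP4A and 2 rose and 3 fell after siLARP4B. In MG63 2 rose after siLARP4A and 4 after siLARP4B, and none fell. The share called was 62.5% in both PC3 comparisons, and 25.0% after siLARP4A, near that of all genes, and 50% after siLARP4B in MG63. The medians were 0.09 and -0.07 in PC3 and 0.10 and 0.12 in MG63.

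Genes whose pattern over the 12 libraries was most like TLNRD1 were sought among 6748 genes with a mean of at least 5 FPKM in both lines, by Pearson's r of log2(FPKM + 1) centred on each line's mean. The libraries share siControl groups and depth, so r is a description. The 5 highest were CALU (calumenin, r = 0.989), SH3BP5 (0.983), PPP1R15B (0.982), CCDC50 (0.982) and VTI1B (0.978). Their changes were smaller than those of TLNRD1: CALU was at 0.36 and -0.24 in PC3 and at 0.32 and -0.13 in MG63 after siLARP4A and siLARP4B. For TAGLN the highest were SPNS1 (0.944), XBP1 (0.943), COL18A1 (0.941), TMEM132A (0.938) and P2RX5 (0.937). For ACTA2-AS1 they were PMAIP1 (0.970), PLAU (0.968), SLC3A2 (0.947), PDLIM1 (0.945) and PKD1 (0.942).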

How the data were processed

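The members and gene lists were chosen with earlier results of these data known. The authors deposited 1 table per library with a fragment count, FPM (a signal scaled to the library total) and FPKM for each of 86394 transcript models. Per the submitters' processing notes, FastQC, HISAT2, featureCounts, edgeR and hg38 were used; versions, roles and strand handling are not given in the sources used here. The deposited FPM signal was not tested. From the deposited counts, models on the primary chromosomes were kept, 1814 symbols at more than 1 locus were left out, and the model with the most fragments stood for each of 26464 symbols. The deposited FPKM values describe levels. Fragment counts of all 12 libraries were fitted with edgeR 4.0.16 in R 4.3.3 (TMM, default filter, quasi-likelihood F-test, two-sided), which left 15682 genes; p-values were adjusted by Benjamini-Hochberg. The biological coefficient of variation was 4.22%, with 15.4 prior and 6 residual degrees of freedom, which set the 95% intervals. The script was tested on simulated data. Named list genes are the 2 highest and 2 lowest changes past the threshold per comparison, with a mean of at least 5 FPKM in either group and siRNA libraries outside the siControl range; the text gives some of them. Alternatives included DESeq2 1.42.0, limma 3.58.1 on log2(FPKM + 1) and log2(FPKM + 0.1), other filters and models, and each library left out. The deduplicated table, held for PC3 siControl replicate 2 alone, replaced that library in an alternative, with the other libraries as deposited. That alternative cannot show how duplicates affect a call. Results for 1 further gene list and 1 marker gene are not reported here.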

Additional observations from a re-analysis of the deposited data

Results flagged for a closer look

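The response to siLARP4B differed between MG63 and PC3, by a test of the difference itself, for 4 of the 10 genes, beside 26.8% of all genes. The count was 2 with the deduplicated table and without any 1 of 6 libraries. TLNRD1 differed by 0.84 on the log2 scale (edgeR adjusted p 0.00047), falling in both lines and further in PC3. VCL differed by 0.32 (edgeR adjusted p 0.00036), with a rise in MG63 and 0.00 in PC3. TPM2 differed by -0.47 (edgeR adjusted p 0.016), with a rise in PC3 and no call in MG63, where the gene is far more abundant. TAGLN differed by -0.42 (edgeR adjusted p 0.049), with a rise in PC3 and no call in MG63, and PCSK7 exon bases lie in the span of its model. The adjusted p over the alternatives ranged from 3.6e-07 to 0.0037 for TLNRD1, from 4.6e-09 to 0.011 for VCL, from 0.0024 to 0.11 for TPM2 and from 0.039 to 0.21 for TAGLN.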

How the results depend on the processing

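Over the alternatives, 1759 of the recomputed log2 values of single genes kept their direction and side of the threshold, 76 lost the call, 29 gained one, 12 of those without a test moved by more than the replicate spread, and 45 changed sign. None of the 45 had an adjusted p under 0.05 either as reported or under the alternative. The counts of genes past the threshold among the 10 moved by over 1.5 times in these cases. In PC3 after siLARP4A the count of 5 was 2 with the deduplicated table and 3 to 5 with a library left out. In PC3 after siLARP4B the count of 8 was 5 when a mean of at least 5 FPKM was required, which leaves fewer genes to test, and 4 to 8 with a library left out. For the siLARP4A difference between lines the count of 0 was 1 with DESeq2 size factors, with DESeq2, with the FPKM filter, with limma at either pseudocount and with the longest model, 2 without a filter, and 0 to 2 with a library left out. For the siLARP4B difference the count of 4 was 2 with the deduplicated table and 2 to 4 with a library left out. Over all genes, the siLARP4A count in MG63 was 2698 to 4763 (4207 as reported), the siLARP4A difference 1049 to 2033 (1757) with a library left out, and the contrast of siControl lines 8144 (12862) with the FPKM filter. The causes were not tested. A replicate block gave 2 genes for the siLARP4A difference between lines in place of 0 (TPM2, edgeR adjusted p 0.044, and VCL, edgeR adjusted p 0.049). It changed no other call. Replicate differences correlated at -0.0267 to 0.0491 between groups, which gives no sign of pairing by number. With 2 libraries per group this cannot exclude pairing. Low counts limit ACTA2, ACTA2-AS1, CNN1 and MYL9 in PC3. The sign changes were these. VCL in PC3 after siLARP4B (0.00) was at -0.02 with DESeq2 and with its size factors, -0.05 without a filter, -0.01 with the FPKM filter and with the deduplicated table, -0.04 in a fit of PC3 alone, -0.00 with the longest model, and -0.05 to 0.01 with a library left out. In MG63 after siLARP4A (-0.02 for TPM1, -0.01 for TPM2), TPM1 was at 0.01 with the FPKM filter and -0.08 to 0.05 with a library left out, and TPM2 at 0.01 without a filter, 0.02 with the FPKM filter, 0.00 with the deduplicated table and -0.02 to 0.01 with a library left out. For the siLARP4A difference between lines, CNN1 (0.01) was at -0.04 with the replicate block, -0.01 and -0.11 with limma at pseudocounts of 1 and 0.1, and -1.41 to 0.67 with a library left out, and MYL9 (-0.37) was at 0.31 with limma at 1. For the siLARP4B difference, limma at 1 gave 0.33 for ACTA2 (-0.06), 0.31 for ACTA2-AS1 (-0.92) and 0.03 for MYL9 (-0.17). ACTA2 was also at 0.09 with limma at 0.1, 0.00 without a filter and -0.46 to 0.59 with a library left out. With a library left out, ACTA2 in PC3 after siLARP4A was at -0.22 to 0.06, CNN1 in MG63 after siLARP4B at -4.78 to 0.35, TPM2 there at -0.11 to 0.01, TPM2 between the siRNAs at -0.25 to 0.19 in PC3 and -0.01 to 0.10 in MG63, and CNN1 between the siControl lines at -0.49 to 1.59.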
